A study of Drosophila melanogaster with 24 samples.

Results

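The bithorax complex holds the Hox genes Ubx, abd-A and Abd-B, and its open chromatin was profiled by ATAC-seq in adult female brains of Drosophila melanogaster. ATAC-seq maps accessible DNA by where a transposase inserts sequencing adapters. The labels' extraction protocol describes RNA libraries instead, and the counts are read here as ATAC-seq because the series and its peak table are of that kind. The members were chosen by position: every deposited peak on arm 3R that overlapped one of the 3 genes, lay within 5 kb of one, or lay between them. This gave 27 of 11145 peaks, numbered here 1 to 27 from Ubx to Abd-B, and all 27 had enough counts to be tested.

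The study set 3 genotypes altered in the replacement histone H3.3 beside a wild type, each at 10 days and at 1 day of adult life, counted from eclosion, when the fly leaves the pupal case. The genotypes are H3.3null, which by its name lacks H3.3, H3.3H3.2, which by its name carries the replicative histone H3.2 in place of H3.3, H3.3S31A, named for a serine-to-alanine change in H3.3, and OreR, the laboratory wild-type strain. Each of the 8 groups had 3 samples, or 24 in all, and every sample came from adult female brain. The labels do not say how the H3.3 alleles were made. They do not say whether samples of a group came from separate crosses or dissections, so p-values here measure only the spread between these samples. Whether the mutants share the strain background of OreR is not given in the labels used here. Where a mutant is set against OreR, the H3.3 change and a difference of strain background therefore cannot be told apart.

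Hox genes encode homeodomain transcription factors that give body segments their identity. In the bithorax complex the genes lie in the order of the segments they act in: Ubx in the posterior thorax, abd-A in the anterior abdomen and Abd-B in the posterior abdomen. Large regulatory stretches between them are held silent by Polycomb group proteins and kept active by Trithorax group proteins, and insulators separate them. Noncoding RNAs run through the same stretches. Among them, lncRNA:bxd lies upstream of Ubx, while lncRNA:iab4 and lncRNA:iab8 give rise to microRNAs that repress Hox transcripts. In the nervous system the complex is known for its activity in the ventral nerve cord, not in the brain.

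Total counts in peaks were between 3021672 and 4890579 per library, and the 27 peaks had 61 to 1156 counts in a library. As a check of the H3.3null label, the peak at chrX:9154788-9155165 beside His3.3B, one of the H3.3 genes, had 9.34 to 18.5 CPM (reads per 1e6 reads counted in peaks) in the H3.3null day 10 libraries, against 45.7 to 45.9 CPM in the OreR day 10 libraries. On day 1 it had 9.66 to 14.4 CPM in H3.3null and 36.6 to 48.4 CPM in OreR. It is 1 of 5 peaks at the H3.3 genes His3.3A and His3.3B. On day 10 the His3.3A peak at chr2L:5055623-5055921 had 48.8 to 65.4 CPM in H3.3null and 22.7 to 27.4 CPM in OreR, while the His3.3B peak at chrX:9152177-9152538 had 61.4 to 70.6 CPM in H3.3null and 88.8 to 95.5 CPM in OreR. The other His3.3A peak had 41.6 to 44 CPM in H3.3null and 45.1 to 61.8 CPM in OreR, and at the widest His3.3B peak H3.3null (209.4 to 246.4 CPM) overlapped OreR (199.6 to 228.2 CPM). These 5 peaks thus did not all differ in 1 direction. The labels do not give the deleted parts, and a peak outside them checks nothing. Peaks lay at 5 of 5 neuronal marker genes and 3 of 4 glial ones, with none at alrm. None lay at any of 5 muscle genes, 1 of 4 hemocyte genes (Pxn) had peaks, and 3 of 5 fat body genes did. All 3 trunk nervous system genes listed (tsh, tio and Antp) had peaks, 9 together.

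Peaks were sparse over Ubx and dense over Abd-B. Ubx (chr3R:16656623-16734426, dm6) held 2 peaks, or 2.57 per 100 kb, and the stretch between Ubx and abd-A held 2 more, or 2.75 per 100 kb. The abd-A gene (chr3R:16807214-16830049) held 2 peaks, or 8.76 per 100 kb. The 97.2 kb between abd-A and Abd-B held 11, or 11.3 per 100 kb, and Abd-B (chr3R:16927212-16972236) held 9, or 20.0 per 100 kb, with 1 more just beyond it. Over 3R as a whole the density was 7.71 peaks per 100 kb, so Ubx was below that and Abd-B above it.

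**Figure D1:**
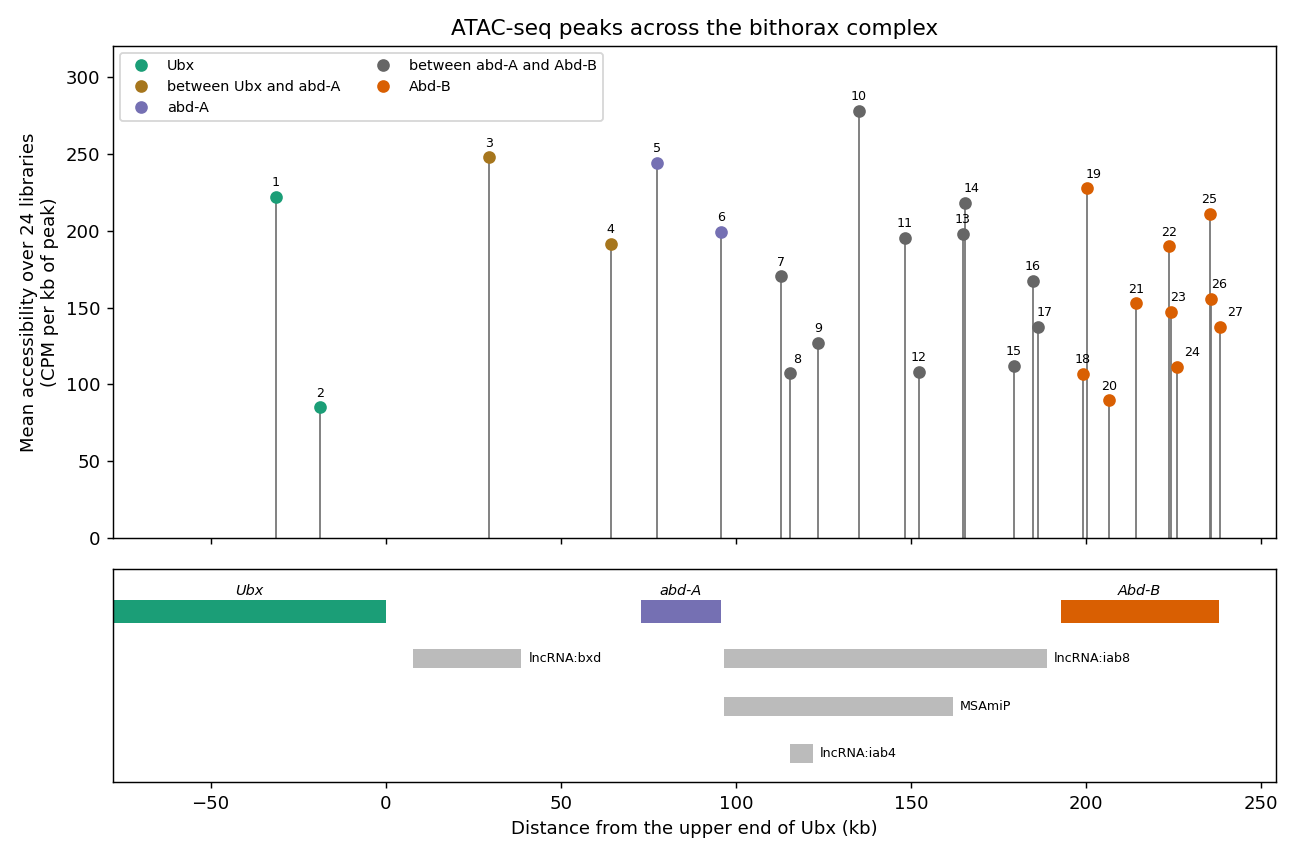
Mean accessibility of the 27 bithorax peaks over 24 libraries, in CPM per kb of peak, against distance from the upper end of Ubx in kb; genes are drawn to scale below. The 2 peaks of Ubx stand alone, and the highest peak (277.8 CPM per kb, peak 10) lies between abd-A and Abd-B.

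Most of these peaks overlapped a transcribed unit, and few lay at the end of a Hox gene. Of the 27, 25 overlapped an annotated gene, and the share over all peaks was not computed. Peak 3 lay in lncRNA:bxd, and all 11 peaks between abd-A and Abd-B lay in lncRNA:iab8, 6 of them also in MSAmiP. The lncRNA:iab8 gene (chr3R:16831116-16923231) spans most of that stretch. Peak 8 (chr3R:16849753-16850208) covered the lower end of lncRNA:iab4 (chr3R:16850004-16856497). The microRNA genes mir-iab-4 and mir-iab-8 share 1 place on opposite strands (chr3R:16856275-16856342), between peaks 8 and 9, with no peak on it. Peak 6 (chr3R:16830020-16830374) covered the upper end of abd-A. Peak 27 (chr3R:16972494-16972980) lay 258 bp above the upper end of Abd-B. Transcription of the Hox genes Ubx, abd-A and Abd-B is known to run from the upper end downward. Start sites inside a gene could not be placed, because the gene positions used carry no exons. No peak lay within 500 bp of an end of Ubx.

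Per kb of peak, accessibility in the complex was mostly above the middle of the table. The median was 167.5 CPM per kb in the complex (range 85.1 to 277.8), against 136 CPM per kb over all 11145 peaks, and 19 of the 27 were above that median of the table. The peaks were 231 to 943 bp wide, with a median of 413 bp against 454 bp in the whole table. Peak 10 (chr3R:16869321-16869737) was the highest of the 27, at the 98.5th percentile of the table. Peak 2 in Ubx was the lowest, with 85.1 CPM per kb. The highest peak of Ubx was peak 1 (221.9 CPM per kb), that of the stretch from Ubx to abd-A peak 3 (247.6), that of abd-A peak 5 (243.8) and that of Abd-B peak 19 (227.4).

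Summed over all 27 peaks, the level on day 10 averaged 1761 ± 93.4 CPM in H3.3null, 2063 ± 58.7 in H3.3H3.2, 1992 ± 121 in H3.3S31A and 1897 ± 40.9 in OreR (SD, n = 3 each). On day 1 it averaged 2140 ± 108 CPM in H3.3null, 2362 ± 22.6 in H3.3H3.2, 2336 ± 43.7 in H3.3S31A and 2242 ± 35.1 in OreR. At both ages the order was H3.3null lowest, then OreR, H3.3S31A and H3.3H3.2. Every genotype was lower on day 10 than on day 1, with no overlap between its libraries of the 2 ages. On day 10 the H3.3null libraries (1653 to 1816 CPM) lay below the OreR ones (1862 to 1942), and the H3.3H3.2 libraries (2017 to 2129) lay above OreR. The H3.3S31A libraries (1876 to 2118) overlapped both neighbours in that order. On day 1 H3.3null (2060 to 2263) overlapped OreR (2203 to 2271), while H3.3S31A (2286 to 2362) and H3.3H3.2 (2337 to 2382) overlapped each other and lay above OreR. In tissue libraries, fewer cells with an open site and less opening per cell cannot be told apart.

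**Figure D2:**
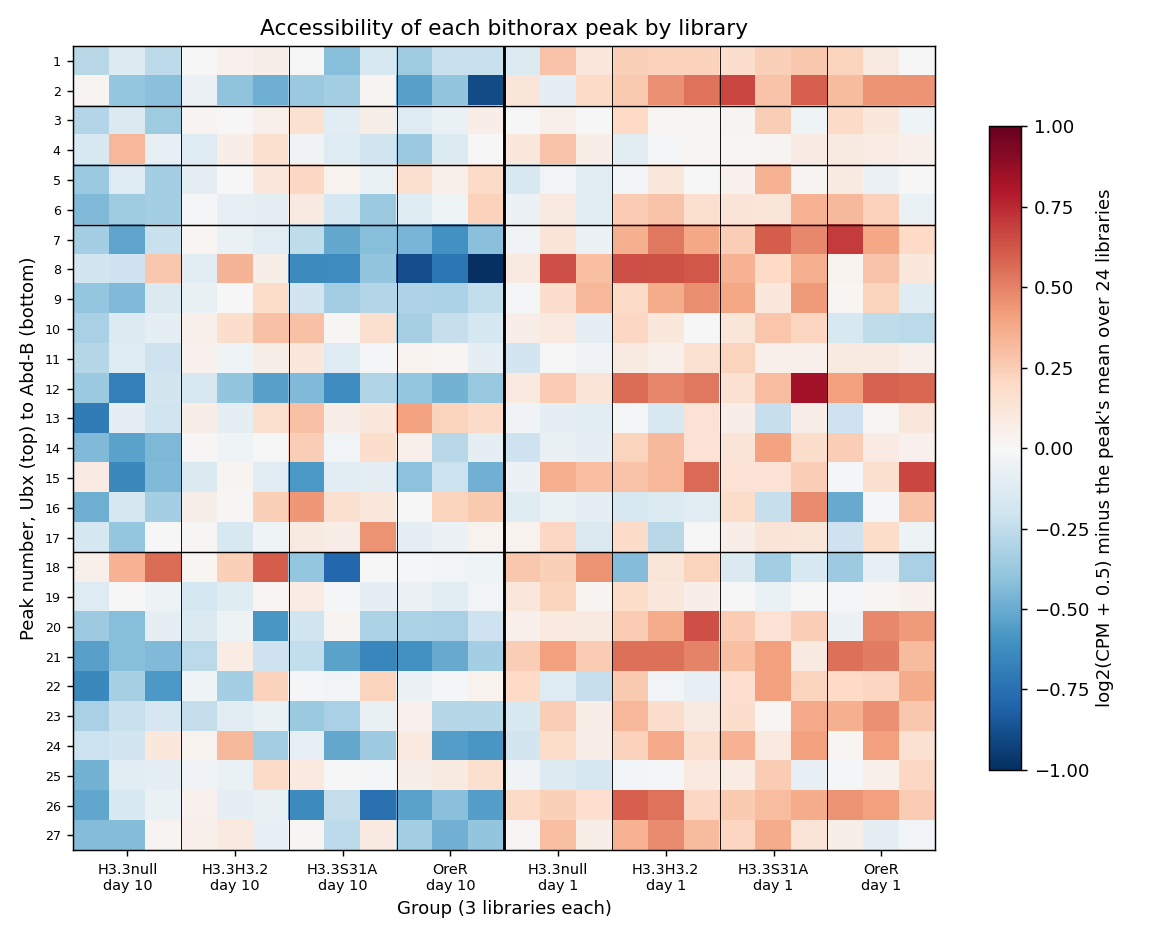
Each bithorax peak (rows, Ubx at the top) in each of the 24 libraries (columns, day 10 left of day 1, 3 libraries a group), as log2(CPM + 0.5) minus the peak's mean over all libraries. Rows such as peaks 7, 8, 12, 21 and 26 are blue in most day 10 libraries and red in most day 1 libraries, while peaks 13, 16 and 18 do not show that split.

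Mutants were then set against OreR at each age, peak by peak, and a peak was called when its adjusted p was under 0.05 (edgeR's quasi-likelihood test, Benjamini-Hochberg over all 11145 peaks). On day 10, H3.3null had 1 bithorax peak higher and 7 lower. Over all 11145 peaks 15.5% were higher and 9.0% lower in that comparison, so the 7 lower peaks (25.9% of 27) stood above the table's share and the 1 higher (3.70%) below it. Of the 27 log2 fold changes, 15 were positive and 12 negative, with a median of 0.005. The 31 peaks within 200 kb outside the complex had 1 higher (3.23%) and 6 lower (19.4%), so their lower share was above the table's too. The 14 peaks at 5 Hox genes of the Antennapedia complex went the other way, with 3 higher (21.4%), all at Scr, and 0 lower. On day 1, H3.3null had 2 bithorax peaks higher (14.1% of the table) and 2 lower (10.6% of the table), which is 7.41% of the 27 each and below the background.

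H3.3H3.2 had no lower call in the complex. On day 10, 5 of the 27 peaks (18.5%) were higher and 0 lower, where the table had 7.13% higher and 3.54% lower. On day 1, 3 (11.1%) were higher and 0 lower, where the table had 6.94% higher and 4.21% lower. The 14 Antennapedia complex peaks also had 0 lower in H3.3H3.2, with 3 higher (21.4%) on day 10 and 2 (14.3%) on day 1. The 31 peaks within 200 kb outside had 0 higher and 4 lower (12.9%) at each age. In the bithorax complex H3.3S31A had 1 peak higher and 0 lower at each age. The table had 6.43% higher and 3.77% lower on day 10, and 6.24% higher and 4.27% lower on day 1, so these shares (3.70% higher) were under the background. The 3 mutants of an age share their OreR libraries. Without OreR day 1 replicate 2 or 3, 1 of the 3 day 1 calls of H3.3H3.2 was left. In all 22 of the calls against OreR the mutant and OreR libraries did not overlap, as was so for 95.1% of the calls of all peaks in these comparisons.

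**Figure D3:**
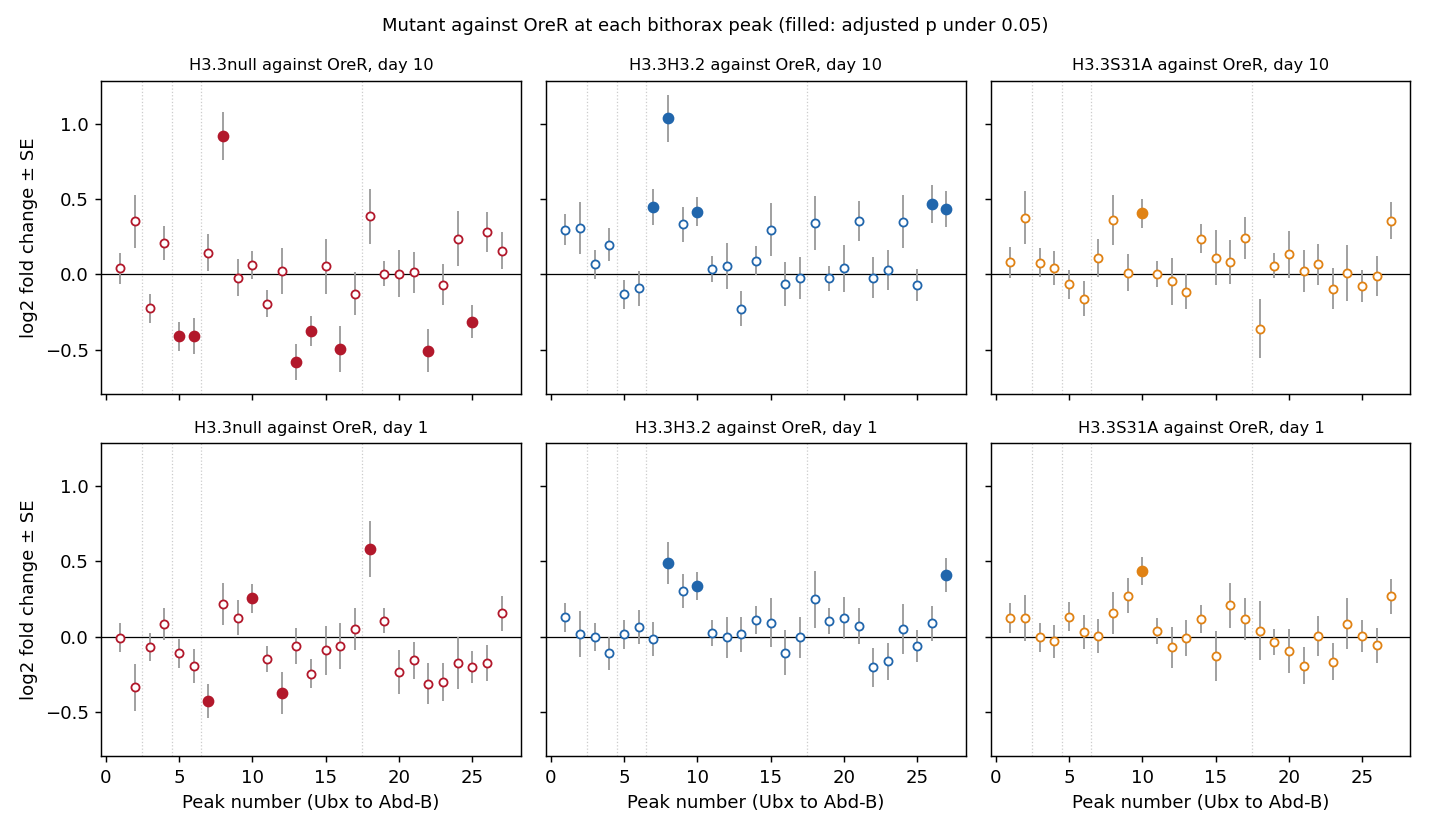
Log2 fold change of each mutant over OreR (± SE) at each bithorax peak, day 10 above and day 1 below, with called peaks filled. In H3.3null on day 10, 7 filled points lie below 0 and peak 8 lies at 0.92; in H3.3H3.2 peak 8 lies at 1.03 on day 10 and 0.49 on day 1.

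The widest gap from OreR was at peak 8, the peak at the lower end of lncRNA:iab4. On day 10 it had 40.4, 39.9 and 55.6 CPM in H3.3null, 42.7, 58.6 and 48.0 CPM in H3.3H3.2, 29.4, 29.6 and 35.0 CPM in H3.3S31A, and 24.7, 27.7 and 20.4 CPM in OreR. All 9 mutant libraries were above all 3 OreR libraries. The log2 fold change was 0.92 ± 0.16 in H3.3null (SE, edgeR adjusted p = 1.84e-05) and 1.03 ± 0.15 in H3.3H3.2 (edgeR adjusted p = 3.04e-06), while H3.3S31A, at 0.36 ± 0.16, did not pass (edgeR adjusted p = 0.206). On day 1 it had 72.5, 71.9 and 71.3 CPM in H3.3H3.2 and 47.3, 56.4 and 49.8 CPM in OreR, a log2 fold change of 0.49 ± 0.14 (edgeR adjusted p = 0.0131). That call needed OreR day 1 replicates 1 and 3, being lost without replicate 1 (edgeR adjusted p = 0.0543) or 3 (0.0537). H3.3null on day 1, with 49.0, 72.3 and 56.8 CPM, overlapped OreR and was not called.

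Peak 10, the most accessible site of the complex, was higher than OreR in H3.3S31A and H3.3H3.2 at both ages. In H3.3S31A it had 140.3, 115.5 and 128.2 CPM on day 10, against 91.0, 97.7 and 101.3 CPM in OreR. This gave a log2 fold change of 0.40 ± 0.09 (edgeR adjusted p = 0.00232). On day 1 it had 124.6, 139 and 132.9 CPM in H3.3S31A and 102.4, 96.0 and 94.8 CPM in OreR, a log2 fold change of 0.44 ± 0.09 (edgeR adjusted p = 9.48e-04). Peak 10 was the only H3.3S31A call in the complex at either age, although 3 were called on day 10 without H3.3S31A day 10 replicate 2. In H3.3H3.2 it had 118.3, 129.1 and 140.3 CPM on day 10 and 132, 123.2 and 114.7 CPM on day 1, with log2 fold changes over OreR of 0.42 ± 0.09 (edgeR adjusted p = 0.00155) and 0.34 ± 0.09 (0.0122). All of these libraries were above every OreR library of their age. The H3.3H3.2 call of day 1 did not pass without OreR day 1 replicate 2 (edgeR adjusted p = 0.0678), OreR day 1 replicate 3 (0.0519) or H3.3H3.2 day 1 replicate 1 (0.0898).

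In H3.3null peak 10 had 119.8, 122.4 and 107.3 CPM on day 1, all above OreR, with a log2 fold change of 0.25 ± 0.09 (edgeR adjusted p = 0.0452). The call was lost without OreR day 1 replicate 2 or 3, without H3.3null day 1 replicate 1 or 2 (edgeR adjusted p between 0.1195 and 0.160), and in 3 other analyses given in the closing section. On day 10 H3.3null, with 91.6, 104 and 106.7 CPM, overlapped OreR and was not called, at 0.06 ± 0.10.

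**Figure D4:**
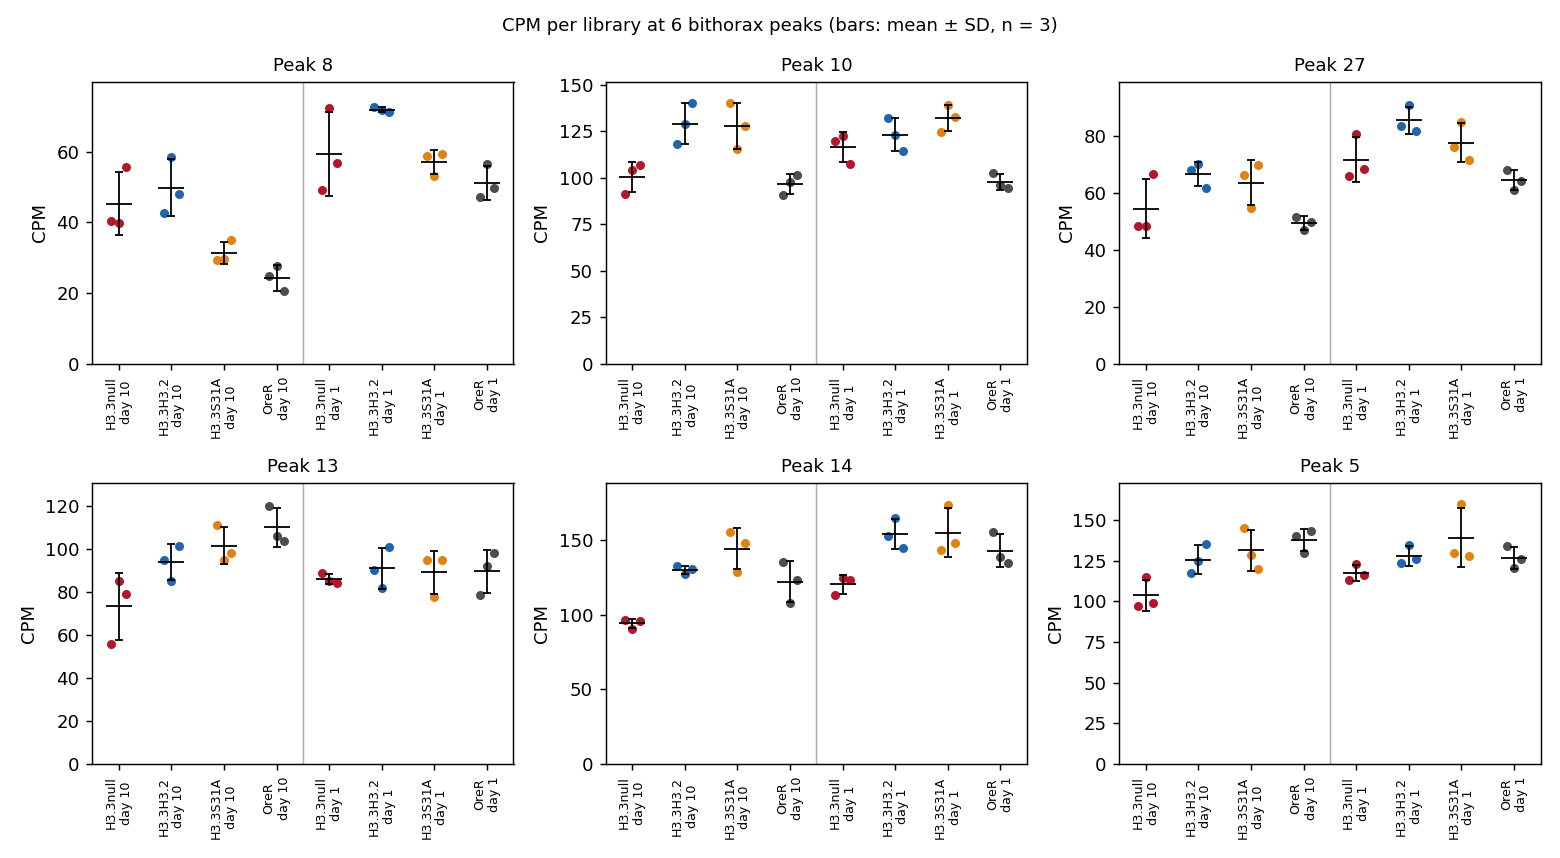
CPM in each of the 24 libraries at 6 bithorax peaks (points), with the group mean ± SD (bars, n = 3), day 10 left of day 1 and mutants left of OreR. At peak 8 on day 10 the H3.3null and H3.3H3.2 libraries (39.9 to 58.6 CPM) lie above the OreR libraries (20.4 to 27.7 CPM); at peaks 13, 14 and 5 the H3.3null libraries of day 10 are the lowest group.

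The peaks called lower in H3.3null on day 10 lay from abd-A to Abd-B, a stretch that holds peaks 5 to 27 and so most of the members. In abd-A, peak 5 had 97.1, 114.9 and 99.2 CPM in H3.3null and 140.4, 130.1 and 143.1 CPM in OreR, a log2 fold change of -0.41 ± 0.10 (edgeR adjusted p = 0.00122). Peak 6, at the start of abd-A, had 51.2, 54.4 and 55 CPM in H3.3null and 63.8, 67.5 and 81.8 CPM in OreR, or -0.41 ± 0.12 (edgeR adjusted p = 0.00926). Both abd-A peaks were thus lower with no overlap of libraries. Without OreR day 10 replicate 3, the highest OreR library at peak 6, that peak was not called (-0.29, edgeR adjusted p = 0.115).

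Between abd-A and Abd-B, the neighbouring peaks 13 (chr3R:16898893-16899358) and 14 (chr3R:16899440-16900051) were both lower in H3.3null on day 10. Peak 13 had 55.8, 85.4 and 79.1 CPM in H3.3null and 120.4, 106.1 and 104.1 CPM in OreR, a log2 fold change of -0.58 ± 0.12 (edgeR adjusted p = 2.73e-04). Peak 14 had 96.5, 90.7 and 95.9 CPM in H3.3null and 135.7, 108.3 and 123.4 CPM in OreR, or -0.37 ± 0.10 (edgeR adjusted p = 0.00362). H3.3null replicate 1 was well below the other two at peak 13, and both calls remained without it or any 1 of the other libraries of the compared groups. In Abd-B, peak 22 had 31.1, 38.7 and 32.6 CPM in H3.3null and 46.9, 48.4 and 49.99 CPM in OreR, or -0.51 ± 0.14 (edgeR adjusted p = 0.00681).

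The other 2 lower calls fell outside the rule for named peaks and are given after their values were seen. Peak 16, between abd-A and Abd-B, was at -0.50 ± 0.15 (edgeR adjusted p = 0.0140) and peak 25, in Abd-B, at -0.31 ± 0.11 (0.0300). Peak 16 was not called without OreR day 10 replicate 3 (edgeR adjusted p = 0.0662) or H3.3null day 10 replicate 1 (0.0727). Peak 25 was not called without OreR day 10 replicate 2 (edgeR adjusted p = 0.0581), OreR day 10 replicate 3 (0.106) or H3.3null day 10 replicate 1 (0.209). Without OreR day 10 replicate 3, H3.3null kept 5 calls of 8 in the complex.

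Genes that act with the complex were counted for the same comparison. Of the 9 peaks at the Hox cofactor genes exd and hth, which encode homeodomain partners of Hox proteins, 4 were lower and 0 higher, where all peaks had the 9.0% lower and 15.5% higher given above. The lowest of them, in hth at chr3R:10535778-10536072, was at -0.62 ± 0.13 (edgeR adjusted p = 2.13e-04), and the exd peak at chrX:15992310-15992529 was at -0.54 ± 0.16 (edgeR adjusted p = 0.0114). The others were neighbours in hth, at chr3R:10638696-10639353 and chr3R:10639509-10640045. On day 1, 0 of these 9 peaks were called in H3.3null, where 14.1% of all peaks were higher and 10.6% lower. Of the 9 peaks at the trunk genes tsh, tio and Antp, 2 were lower on day 10, both at tio, and 0 higher, with 0 called on day 1. Their summed level on day 10 was 641 to 657.6 CPM in H3.3null against 743.9 to 794.8 CPM in OreR. The part of that difference in the bithorax values was not tested.

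On day 1 H3.3null gave 4 other positions. Peak 7 (chr3R:16847182-16847595) had 66.2, 74.1 and 65.1 CPM in H3.3null and 110, 88.9 and 78.0 CPM in OreR, a log2 fold change of -0.43 ± 0.11 (edgeR adjusted p = 0.00477). Peak 12 had 47.5, 53.0 and 48.8 CPM in H3.3null and 59.4, 67.1 and 66.5 CPM in OreR, or -0.37 ± 0.14 (edgeR adjusted p = 0.0445). Peak 18, the narrowest of the complex, lies in Abd-B and was higher. It had 29.1, 28.5 and 33.1 CPM in H3.3null and 18.6, 22.8 and 19.2 CPM in OreR, or 0.58 ± 0.19 (edgeR adjusted p = 0.0183). With peak 10 these are the 4 calls of that day, and 0 of them were also called on day 10. Leaving out OreR day 1 replicate 3 left 1 of the 4 calls, peak 7, and leaving out any other library of these groups left 2 of them. Peak 7 was not called without OreR day 1 replicate 1 (edgeR adjusted p = 0.0772). Peak 12 was not called without OreR day 1 replicate 2 or 3 or any 1 of the H3.3null day 1 libraries (edgeR adjusted p between 0.0550 and 0.133). Peak 18 was not called without OreR day 1 replicate 1 (edgeR adjusted p = 0.0585) or replicate 3 (0.0639), or H3.3null day 1 replicate 3 (0.0833).

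At the Abd-B end, H3.3H3.2 was higher at peak 27, next to the upper end of the gene, at both ages. It had 67.9, 70.0 and 61.8 CPM in H3.3H3.2 on day 10 and 51.6, 46.9 and 49.8 CPM in OreR, a log2 fold change of 0.43 ± 0.12 (edgeR adjusted p = 0.0126). On day 1 it had 83.7, 90.9 and 81.9 CPM in H3.3H3.2 and 68.1, 61.2 and 64.2 CPM in OreR, or 0.41 ± 0.11 (edgeR adjusted p = 0.0124). The groups did not overlap at either age. The call of day 10 did not pass without OreR day 10 replicate 2 (edgeR adjusted p = 0.0636) or H3.3H3.2 day 10 replicate 2 (0.0647), and that of day 1 without OreR day 1 replicate 2 (0.0873) or H3.3H3.2 day 1 replicate 2 (0.0905).

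Peaks 26 and 7 were called higher in H3.3H3.2 on day 10 and not on day 1. Peak 26, in Abd-B, had 60.2, 54.7 and 55.6 CPM in H3.3H3.2 and 40.1, 43.7 and 39.8 CPM in OreR, or 0.47 ± 0.13 (edgeR adjusted p = 0.0103). Peak 7 had 68.8, 64.8 and 62.5 CPM in H3.3H3.2 and 48.9, 44.4 and 50.4 CPM in OreR, or 0.45 ± 0.12 (edgeR adjusted p = 0.00979). The groups did not overlap at either site. Peak 26 was not called without OreR day 10 replicate 3 (edgeR adjusted p = 0.0514) or H3.3H3.2 day 10 replicate 1 (0.0595), and peak 7 not without OreR day 10 replicate 2 (0.0633) or H3.3H3.2 day 10 replicate 1 (0.0552). Leaving out OreR day 10 replicate 2 or H3.3H3.2 day 10 replicate 1 left 3 of the 5 calls.

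H3.3H3.2 and H3.3null were also compared with each other, a comparison of H3.2 in place of H3.3 with the loss of H3.3. On day 10, 4 bithorax peaks were higher in H3.3H3.2 and 0 lower, where 3.64% of the table was higher and 7.05% lower, and 23 of the 27 log2 fold changes were positive (5672 of 11145 in the table). On day 1, 2 were higher and 0 lower, where the table had 4.91% higher and 6.44% lower. Peak 14 was higher on both days. On day 10 it had 132.7, 127.4 and 130.9 CPM in H3.3H3.2 and the 90.7 to 96.5 CPM of H3.3null given above, a log2 fold change of 0.47 ± 0.10 (edgeR adjusted p = 8.14e-04). On day 1 it had 153.2, 165 and 145 CPM in H3.3H3.2 and 113.5, 124.7 and 123.4 CPM in H3.3null, or 0.36 ± 0.09 (edgeR adjusted p = 0.00815). The libraries did not overlap on either day. On day 1 the call was lost without H3.3null replicate 1 (edgeR adjusted p = 0.0640) or H3.3H3.2 replicate 2 (0.0725).

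The other day 10 calls between these genotypes were peak 10 at 0.35 ± 0.09 (edgeR adjusted p = 0.00931), peak 22 at 0.48 ± 0.14 (0.0203) and peak 3 at 0.29 ± 0.10 (0.0398). Peak 3, in lncRNA:bxd, had 204.1, 199.6 and 206.7 CPM in H3.3H3.2 and 162.8, 180.5 and 155.9 CPM in H3.3null. Peak 22 had 47.4, 38.5 and 57.3 CPM in H3.3H3.2, whose lowest library fell just under the highest one of H3.3null, so there the groups overlapped. Leaving out H3.3null day 10 replicate 1 or H3.3H3.2 day 10 replicate 3 left 1 of the 4 calls, peak 14. Peaks 3, 10 and 22 then had edgeR adjusted p between 0.0741 and 0.1135 without that H3.3null library, and between 0.0831 and 0.202 without that H3.3H3.2 library. Peak 3 was lost also without H3.3null day 10 replicate 3 (edgeR adjusted p = 0.172) or H3.3H3.2 day 10 replicate 1 (0.0919) or 2 (0.0790), and peak 22 without H3.3null day 10 replicate 3 (0.0855). On day 1 the other call was peak 7 at 0.41 ± 0.11 (edgeR adjusted p = 0.0122), lost without H3.3null day 1 replicate 1 (0.0602) or 3 (0.0633) or H3.3H3.2 day 1 replicate 2 (0.0847). No day 1 call was left without H3.3null replicate 1 or H3.3H3.2 replicate 2.

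The difference between day 10 and day 1 is given as a description, because these genes were taken up with age calls of these data already known. Day 10 was lower in all 4 genotypes at 18 of the 27 peaks and higher in all 4 at 0, against 14.2% and 13.5% of all peaks. Calls of an age difference were 2 lower in H3.3null, 6 in H3.3H3.2, 8 in H3.3S31A and 10 in OreR, with 0 higher in each. The background was 0.538% lower and 0.386% higher for H3.3null, 0.520% lower and 0.0897% higher for H3.3H3.2, 0.799% lower and 0.188% higher for H3.3S31A, and 1.19% lower and 0.718% higher for OreR. These shares rest on few peaks: leaving out 1 library took the calls of all peaks as low as 32, against 103 with all libraries, in H3.3null (without day 1 replicate 2), 21 against 68 in H3.3H3.2 (day 10 replicate 1), 30 against 110 in H3.3S31A (day 10 replicate 3) and 90 against 213 in OreR (day 10 replicate 1). For the mean of the 4 genotypes 16 peaks were lower and 0 higher, with 5.0% of the table higher and 5.13% lower. Leaving out single libraries gave between 1 and 4 calls in H3.3null and 2 to 4 in H3.3H3.2, with the libraries named in the closing section. OreR gave 6 calls without OreR day 10 replicate 3.

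**Figure D5:**
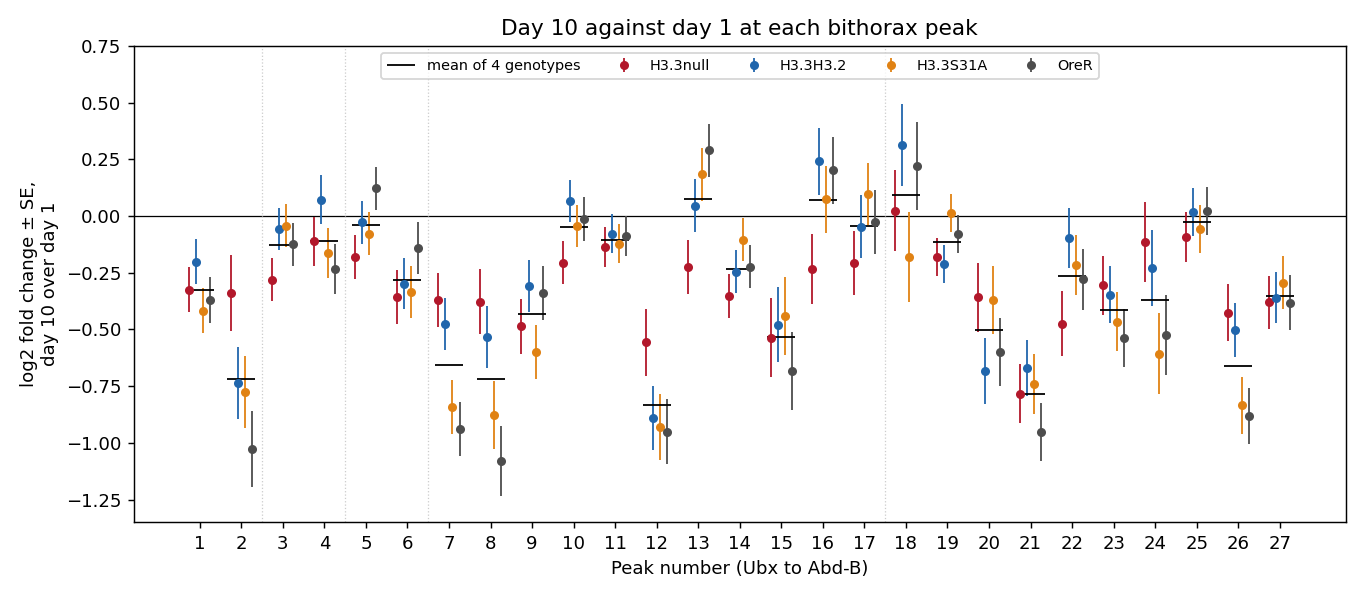
Log2 fold change of day 10 over day 1 (± SE) at each bithorax peak in each genotype (points), with the mean of the 4 genotypes (bars). Peaks 2, 7, 8, 12, 21 and 26 have means between -0.83 and -0.66, while peaks 10, 13, 16, 17, 18 and 25 have means between -0.05 and 0.09.

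The peaks with the widest age difference were spread over the complex. As the mean of 4 genotypes, the log2 fold change of day 10 over day 1 was -0.83 ± 0.07 at peak 12, -0.79 ± 0.06 at peak 21, -0.72 ± 0.08 at peak 2, -0.72 ± 0.07 at peak 8, -0.66 ± 0.06 at both peaks 26 and 7, -0.53 ± 0.09 at peak 15 and -0.50 ± 0.07 at peak 20. Peak 2 lies in Ubx, peaks 7, 8, 12 and 15 between abd-A and Abd-B, and peaks 20, 21 and 26 in Abd-B. Neither abd-A peak was among them. Peak 21 (chr3R:16948592-16948867) was called in all 4 genotypes, and peaks 2, 7, 12 and 26 in 3 each.

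In H3.3null peak 21 had 27.4, 29.8 and 29.5 CPM on day 10 and 47.8, 53.7 and 48.1 CPM on day 1. In OreR it had 26.2, 28.2 and 31.6 CPM on day 10 and 59.1, 57.6 and 50.3 CPM on day 1. The ages were far apart in both genotypes, and every day 10 library of H3.3H3.2 (33.2 to 42.3 CPM) and H3.3S31A (25.4 to 33.8 CPM) was also below the day 1 libraries of its genotype. In OreR peak 12 had 33.9, 31.9 and 34.1 CPM on day 10 and 59.4, 67.1 and 66.5 CPM on day 1. Peak 2 in OreR had 18.9, 21.1 and 14.8 CPM on day 10 and 34.9, 38.2 and 38.3 CPM on day 1. The OreR libraries of the 2 ages did not overlap at either peak, and in H3.3null they overlapped at peak 2.

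At peaks 8, 7 and 2 the age difference was nearer 0 in H3.3null than in OreR, but the test of that difference did not pass. At peak 8 the log2 fold change of day 10 over day 1 was -0.38 ± 0.14 in H3.3null, -0.53 ± 0.14 in H3.3H3.2, -0.88 ± 0.15 in H3.3S31A and -1.08 ± 0.15 in OreR. At peak 7 it was -0.37 ± 0.12 in H3.3null and -0.94 ± 0.12 in OreR, and at peak 2 -0.34 ± 0.17 in H3.3null and -1.03 ± 0.17 in OreR. Over all 27 peaks, the age effect in H3.3null minus that in OreR was positive at 13 and negative at 14, with a median of -0.05. At peak 13, where it was negative, H3.3null averaged 73.4 CPM on day 10 and 86.2 CPM on day 1. OreR averaged 110.2 CPM on day 10 and 89.9 CPM on day 1 at that peak. The test of the difference between age effects itself passed at 0 of the 27 peaks, and at 0 peaks (0%) of the table, for each mutant against OreR. The smallest edgeR adjusted p in the complex was 0.308 for H3.3null at peak 7, with a difference of 0.57 ± 0.17. It was 0.999 for H3.3H3.2, also at peak 7, and 1.00 for H3.3S31A at peak 9. At an unadjusted p under 0.05, H3.3null had 7 of the 27 peaks (985 of all peaks), H3.3S31A had 0 (389 of all) and H3.3H3.2 had 3 (338 of all). DESeq2 called 0 of the 27 in each of these tests, and of all peaks 8 passed for H3.3null and 0 for the other mutants.

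The peaks with an age call were on the whole the less accessible ones. The 16 peaks lower for the mean of the genotypes had a median of 142.1 CPM per kb, and the 11 others, among them peaks 3, 5, 10 and 19, a median of 197.8 CPM per kb. Across the 27 peaks the age log2 fold change and log2 CPM per kb had Pearson's r = 0.564 and Spearman's rho = 0.52, against -0.077 and -0.0807 across all 11145 peaks. All points rest on the same 24 libraries, so this is a description of these peaks.

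The 31 peaks within 200 kb outside had 0 age calls in each genotype. At most 1.19% of all peaks were lower and 0.718% higher in a genotype, so 0 calls among 31 do not set them apart from the table. For the mean of the genotypes they had 1 higher and 0 lower. The 14 peaks at 5 genes of the Antennapedia complex, which patterns the head and anterior thorax, had 4 lower in H3.3null, 2 in H3.3H3.2, 6 in H3.3S31A and 6 in OreR, and 0 higher. For the mean of the genotypes it had 9 lower and 2 higher. Of the 9 peaks at the trunk genes tsh, tio and Antp, 6 were lower and 0 higher for that mean, 4 of them at Antp, which belongs to the Antennapedia complex too, 1 at tsh and 1 at tio. Of 10 peaks at 5 brain regional genes, 4 were lower and 0 higher, and of the 9 at exd and hth, 2 were lower and 0 higher, where all peaks had 5.13% lower and 5.0% higher. The summed level of the trunk peaks was 641 to 657.6 CPM in H3.3null on day 10 and 729.8 to 816.7 CPM on day 1, and 743.9 to 794.8 CPM in OreR on day 10 and 815.9 to 859.3 CPM on day 1. Neuronal genes had 5 of 27 peaks higher and 0 lower for the mean of the genotypes. The part of these genes in the bithorax values was not tested.

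Genes whose products act on the complex were counted by list. At 12 of 19 Polycomb group genes lay 25 peaks, of which 5 were higher and 1 lower in H3.3null on day 10, and likewise on day 1. That is 20.0% higher and 4.0% lower, near the shares of all peaks (15.5% and 9.0% on day 10, 14.1% and 10.6% on day 1). Among them, the peak at chrX:2125429-2125950 by ph-p, which encodes a subunit of the Polycomb silencing complex, was at 0.83 ± 0.10 on day 10 (edgeR adjusted p = 3.63e-08). The peak by caly, which encodes a deubiquitinase of histone H2A, was higher in all 3 mutants at both ages, by 0.39 to 0.76. At 8 of 10 Trithorax group genes lay 34 peaks, 2 higher and 0 lower in H3.3null on day 10 and 7 higher and 4 lower on day 1, or 5.88% higher on day 10 and 20.6% higher and 11.8% lower on day 1. For the mean of the genotypes, day 10 was higher at 1 and lower at 1 of the Polycomb group peaks (4.0% each way). It was higher at 5 and lower at 6 of the Trithorax group peaks (14.7% and 17.6%). Over all peaks 5.0% were higher and 5.13% lower.

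Among the insulator factors, 7 of 10 genes had 13 peaks, 2 higher and 2 lower in H3.3null on day 10 and 3 higher and 2 lower on day 1. The day 10 shares were 15.4% each way and those of day 1 23.1% higher and 15.4% lower. Over all peaks 15.5% were higher and 9.0% lower on day 10, and 14.1% higher and 10.6% lower on day 1. Both peaks lower in H3.3null were at mod(mdg4), which encodes proteins of insulator complexes, with -1.27 ± 0.15 at chr3R:21369226-21369825 on day 10 (edgeR adjusted p = 5.28e-08). Another mod(mdg4) peak, at chr3R:21375030-21375852, was higher in H3.3null. Its log2 fold change was 0.71 ± 0.11 on day 10 (edgeR adjusted p = 4.88e-06) and 0.51 ± 0.11 on day 1 (5.19e-04). In H3.3H3.2 the peak at CTCF, whose protein binds boundaries between the regulatory domains of the complex, was higher on day 10 by 0.71 ± 0.13 (edgeR adjusted p = 1.64e-04) and on day 1 by 0.80 ± 0.14 (3.29e-05). It was higher in H3.3S31A too, by 0.58 ± 0.14 on day 10 (edgeR adjusted p = 0.00258) and 0.69 ± 0.14 on day 1 (3.81e-04). For the mean of the genotypes, day 10 was higher at 0 and lower at 2 of the 13 insulator factor peaks (15.4% lower).

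Peaks outside the complex were set against the mean of the 27 over the 24 libraries, by Pearson's r of log2(CPM + 0.5). Among those that overlap an annotated gene, the most alike were at Antp and CG46458 (chr3R:6930448-6930777, r = 0.945), pnt (0.941), croc (0.933), lncRNA:CR45267 (0.93) and TfAP-2 (0.926). Peaks that overlap no gene were left out of this ranking. Within the complex, peaks 7 and 21 followed the mean most closely (r = 0.914 each). Peaks 13, 16 and 18 did not follow it, with r of 0.03, 0.05 and -0.12. Each of the 27 is part of that mean, so its r cannot be set beside those of outside peaks. These values rest on 24 libraries that hold both ages, and are given as a description.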

How the data were processed

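The values are read counts per peak for 1 peak set shared by all 24 samples, deposited by the authors as a single table and each column was assigned by the genotype, age and replicate in its name. Per the submitters' processing notes, the genome build is dm6 and the tools include STAR 2.7.7a, SAMtools 1.9, bedtools 2.26, deepTools 3.2.0, featureCounts from Subread 2.0.1 and DESeq2 1.34.0. The peak caller, duplicate removal, transposase offset and counting rule are not given in the sources used here. Per the labels' protocols, 8 brains were homogenised and total RNA libraries made, whereas the labels' molecule is genomic DNA and the series is ATAC-seq; the counts were taken as ATAC-seq. Counts carry no molecular identifiers, and intervals of the fit cover the spread between libraries.

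Members, gene lists and comparisons were chosen with earlier results of these data known. Gene positions came from the RefSeq table of Release 6, which carries no strand or exons here; coordinates are as the peak file gives them, and no genome sequence was used. CPM are counts per 1e6 counts of a library after TMM scaling (factors 0.970 to 1.02). Counts were fitted over all 11145 peaks with edgeR 4.0.16 in R 4.3.3 (quasi-likelihood, robust, 1 coefficient per group, 16 residual degrees of freedom, no covariate); the low-count filter removed 0 peaks, and DESeq2 1.42.0 was an alternative. The common biological coefficient of variation was 8.96%, and the median SE of a log2 fold change of 1 group against another was 0.116 to 0.125. Counts of 2 libraries of a group differed by more than sampling noise in all 24 pairs (chi-square per degree of freedom 2.20 to 8.22). Steps were checked on simulated counts.

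The peaks named are the highest per kb of each gene and interval, those within 500 bp of a gene's end, called peaks of each genotype comparison (at most the 6 smallest p), the 8 widest mean age differences and the smallest p of each test between age effects. List peaks lie within 1 kb of a listed gene.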

Additional observations from a re-analysis of the deposited data

Results flagged for a closer look

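Peak 16, which lies between abd-A and Abd-B, had age differences of opposite sign in 2 genotypes, neither of them called (edgeR adjusted p = 0.583 for the H3.3null difference, 0.659 for that of H3.3H3.2). In H3.3null it had 39.8, 49.9 and 44.2 CPM on day 10 and 51.6, 53.5 and 52.5 CPM on day 1, so that all day 10 libraries were below all day 1 libraries (log2 fold change of day 10 over day 1 -0.23). In H3.3H3.2 it had 58.3, 56.4 and 66.2 CPM on day 10 and 50.2, 50.9 and 51.8 CPM on day 1, with all day 10 libraries above all day 1 libraries (0.24). The difference between these 2 age effects was not tested.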

How the results depend on the processing

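The alternatives were another scaling (RLE), no filter or a stricter one, a fit without robust estimation, the compared groups alone, the replicate number as a block, DESeq2, no 5 kb flanks, and each library left out. Over 39 values of named peaks, 644 of 695 alternative values kept direction and call, 51 lost the call and 0 changed sign. All 51 were in comparisons between genotypes. The mean age differences kept their calls throughout, and the tests between age effects had no call to lose. The pooled count therefore makes the genotype calls look steadier than they were. Leaving out 1 library gave 396 of the 695 values and 47 of the lost calls. The other 4 were peak 10 in H3.3null against OreR on day 1 with the replicate block (edgeR adjusted p = 0.0507), with the compared groups alone (0.0725) and in DESeq2 (adjusted p = 0.0502), and peak 25 in H3.3null against OreR on day 10 with the compared groups alone (edgeR adjusted p = 0.0513). The replicate numbers do not pair the samples: in 0 of 12 comparisons were all correlations of same-numbered deviations over 0.1 (range -0.237 to 0.353), and in 0 of 12 did every sample correlate best with its own number. The block left the calls in the complex within 1.5 times in every comparison.

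Outside the left-out libraries, counts of bithorax peaks moved by over 1.5 times in 2 cases: H3.3H3.2 against H3.3null on day 1, with 4 calls from the compared groups alone (2 in the fit of all samples), and day 10 against day 1 in H3.3null, with 4 calls in DESeq2 (2 in edgeR). Leaving out 1 library gave between 2 and 3 calls for H3.3null against OreR on day 1, 5 and 9 on day 10, 1 and 3 for H3.3H3.2 against OreR on day 1, 3 and 6 on day 10, 1 and 3 for H3.3S31A on day 10, and 0 and 2 for H3.3H3.2 against H3.3null on day 1, 1 and 6 on day 10. For age it gave 1 to 4 in H3.3null, with 4 without day 10 replicate 3 and 1 without day 10 replicate 1 or 2 or day 1 replicate 2 or 3. In H3.3H3.2 it gave 2 to 4, with 2 without day 10 replicate 1 or 3 and 3 without day 1 replicate 2 or 3. H3.3S31A gave 6 to 8, OreR 6 to 9, and the mean of the genotypes 16 or 17. Over the whole table, outside the left-out libraries, counts reached 1936 for H3.3H3.2 against H3.3null on day 1 (1265 in the fit of all samples), and for age 165 (103 there) in H3.3null, 134 (68 there) in H3.3H3.2 and, as a low, 41 (110 there) in H3.3S31A. Leaving out 1 library took the count of H3.3H3.2 against H3.3null on day 1 down to 830, and the age counts down to 32 in H3.3null, 30 in H3.3S31A, 21 in H3.3H3.2 and 90 (213 with all) in OreR.

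With 3 libraries a group, the smallest call among mutants against OreR was 0.25 on the log2 scale, and no smaller difference at these peaks was called. The compared groups alone were not run for the mean age effect and the tests between age effects, and DESeq2 gave no adjusted p for 5 values.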
